A study of Homo sapiens with 6 samples.

Results

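The genes of the hypoxia-inducible factor HIF1 pathway and of glycolysis were examined in A549 cells with and without overexpression of APEX1. The set held 42 genes of the 32192 in the count table, taken by gene symbol: 7 encode HIF subunits and the proteins that sense oxygen, 13 encode HIF targets outside glycolysis, 3 encode glucose and lactate transporters, and 19 encode glycolytic enzymes. A549 is an established line from a human lung adenocarcinoma, a form of non-small-cell lung cancer. The sequenced mRNA libraries were 3 from A549 cells transiently transfected with APEX1, cloned into the plasmid pIRES-hrGFP-1a with a FLAG tag at its end (APEX1-OE), and 3 from A549 cells that received the control plasmid (Ctrl). The labels do not say whether the 3 libraries of a group came from separate cultures, so the p-values below measure the spread between these libraries, which may be technical. The cells of both groups are from 1 line, and no oxygen level or hypoxia treatment is named in the labels.

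HIF is a pair of an alpha subunit, HIF1A or EPAS1, and the partner ARNT. With oxygen present, EGLN enzymes hydroxylate the alpha subunit, VHL then marks it for degradation, and HIF1AN blocks its binding to coactivators. Without oxygen the alpha subunit accumulates and the pair binds short DNA motifs at genes for glucose uptake, glycolysis, acid export, blood vessel growth and mitophagy. APEX1, also known as Ref-1, repairs abasic sites in DNA and reduces cysteines of several transcription factors, HIF1A among them. HIF is controlled mainly through the stability of its alpha subunit, which the RNA levels here do not measure.

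With all 6 libraries, none of the 42 members was called (adjusted p under 0.05) between APEX1-OE and Ctrl, while the transfected APEX1 was. With the condition as the only term in the fit, 37 of the 42 members had a log2 fold change under its own standard error (SE). CA9, the tumor-associated carbonic anhydrase of the cell surface, was the only member whose CPM did not overlap between the groups, and it was lower in all 3 APEX1-OE libraries. It was 1 of 42 members, near the share of all genes tested that were lower without overlap, 2.01%. In bulk RNA, fewer cells with a transcript and less of it per cell cannot be told apart. Most of the differences among libraries of 1 group ran along another axis. On the first principal component, which held 72.6% of the variance, APEX1-OE replicate 1 stood with Ctrl replicates 1 and 2 (set A), and APEX1-OE replicates 2 and 3 stood with Ctrl replicate 3 (set B). The sets are not named in the labels. The libraries held between 28131955 and 41009197 counts, and the members took between 2.80% and 3.42% of them. APEX1 stood at 1272, 1185 and 1300 normalized CPM (counts scaled to library size, TMM) in APEX1-OE and at 244, 243 and 214 CPM in Ctrl, so each library matched its label. The plasmid and the chromosomal APEX1 were not separated in these counts. The A549 epithelial markers were all detected, 7 of 8 above 10 FPKM in every library. Of the 12 markers listed for other cell types, 9 were in the FPKM table, and 8 of these stayed under 1 FPKM in every library. The other was CD14, at 1.51 to 3.18 FPKM.

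Promoter sequence is shown for the 6 members with an unadjusted p under 0.05 in both fits described below that account for the library sets, since the letters ACGTG and GCGTG are the core of the motif that HIF binds. Sequences are from RefSeq on GRCh38.p14, 5′ to 3′ on the strand of the gene, and the capitals mark ACGTG or GCGTG on either strand. ACGTG on the other strand reads CACGT and GCGTG reads CACGC, and CACGTG holds ACGTG on both strands and was counted for each. LDHA and BNIP3 are shown from 200 to 51 bases before the start site, 150 bases each, because they held 5 and 6 matches there.
LDHA, chr11:18394363-18394512, plus strand: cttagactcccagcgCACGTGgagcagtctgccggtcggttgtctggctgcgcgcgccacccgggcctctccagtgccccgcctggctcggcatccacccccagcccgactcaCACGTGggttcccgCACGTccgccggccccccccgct
BNIP3, chr10:131981974-131982123, minus strand: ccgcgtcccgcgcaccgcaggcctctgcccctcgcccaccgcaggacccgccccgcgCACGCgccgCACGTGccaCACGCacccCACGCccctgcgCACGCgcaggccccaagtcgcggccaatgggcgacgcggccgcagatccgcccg
For CA9, CA12, ADM and TPI1, 1 match with 10 bases on either side is shown.
CA9, chr9:35673900-35673924, plus strand: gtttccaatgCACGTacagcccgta
CA12, chr15:63382066-63382090, minus strand: ggatctcaccCACGCctgccagcag
ADM, chr11:10304962-10304986, plus strand: gcaggagcgcGCGTGgctgaggaaa
TPI1, chr12:6868078-6868102, plus strand: tgcgccgccgCACGTagccccagac
LDHA, BNIP3, CA9 and CA12 lay lower in APEX1-OE, and ADM and TPI1 higher, in both of these fits. Promoters of members of either direction held matches. So did promoters of members without an unadjusted p under 0.05 in either fit: a promoter of HK2 held 6 and that of ALDOC 5. Another promoter of TPI1 (chr12:6867281-6867580) held none, and another promoter of LDHA (chr11:18396101-18396400) held 1. A promoter of 300 bases (250 before the start site and 50 after it) was found for 37 of the 42 members, 65 promoters in all. One or both motifs were present in 66.2% of these, against 48.4% of all 35116 promoters of that length in the table. ACGTG was present in 36.9% against 21.4%, and GCGTG in 41.5% against 36.5%. Several genes had more than 1 promoter, some of them overlapping, so 1 match can be counted more than once. The members were chosen for known links to HIF or glycolysis, so these shares describe the list and are not a test. A match describes the letters and is not a measured binding site.

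The levels of the members are compared per length, in FPKM (fragments scaled to transcript length and library size). GAPDH was the highest with a mean of 2662 FPKM over the 6 libraries, followed by ENO1 at 1750 FPKM and PKM at 1542 FPKM. The ranges of ENO1 and PKM over the libraries overlapped. GAPDH lay clear above ENO1, and PKM clear above the next enzyme, TPI1 at 487 FPKM. LDHA (453 FPKM), ALDOA (447 FPKM), PGAM1 (432 FPKM) and LDHB (364 FPKM) came next, with ranges that overlapped from each to the next. In all, 12 members stood above 100 FPKM, and 11 of these were glycolytic enzymes. The other was DDIT4, an inhibitor of mTORC1, at 237 FPKM. HIF1A, at 68.7 FPKM, stood between CA12 (78.0 FPKM) and the lactate exporter SLC16A3 (64.4 FPKM). At the low end were ANKRD37 (0.898 FPKM), HK2 (0.517 FPKM) and PDK1 (0.357 FPKM), and 13 members had a mean under 10 FPKM. Of the 41 pairs of neighbours in this order, 31 overlapped.

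**Figure D1:**
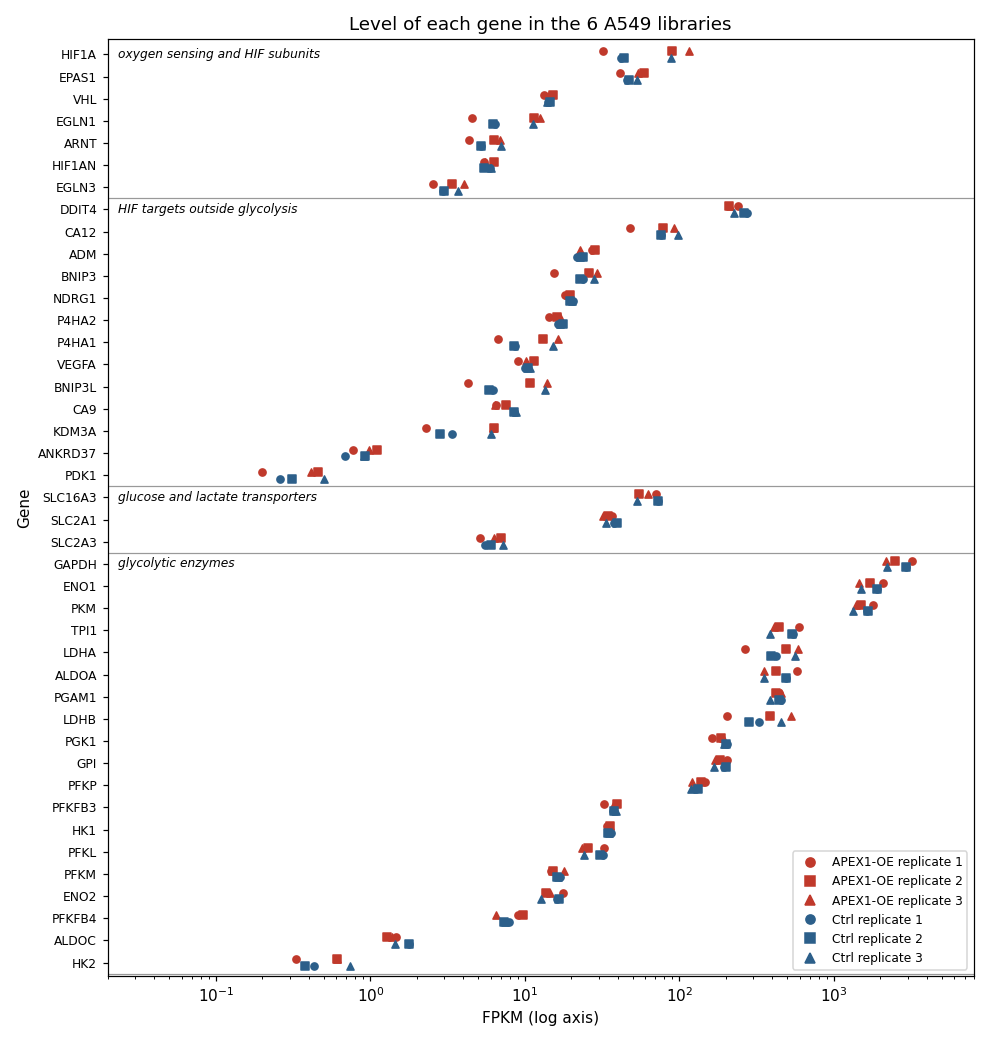
The FPKM of each of the 42 genes on a log axis, grouped by role, with 1 symbol for each of the 6 libraries (red APEX1-OE, blue Ctrl). Glycolytic enzymes fill the top of the scale with GAPDH at 2662 FPKM on average, and HIF1A spreads from 31.9 to 116 FPKM with APEX1-OE libraries at both ends.

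Where 2 or 3 genes encode the same activity, 1 usually dominated the FPKM of the family. HK1 made up 98.6% ± 0.418 of the hexokinase FPKM in APEX1-OE, against 98.6% ± 0.539 in Ctrl (SD, n = 3 each). ALDOA held 99.7% and 99.6% of aldolase, and ENO1 held 99.1% of enolase in both groups. PFKP, the platelet form of phosphofructokinase, held 75.8% ± 1.33 in APEX1-OE, against 73.6% ± 1.15 in Ctrl (SD, n = 3 each). Its relatives PFKL (15.2% and 16.8%) and PFKM (9.0% and 9.6%) made up the rest. Other families were also led by 1 member: SLC2A1, also called GLUT1, with 84.8% and 85.4% of the glucose transporters, CA12 with 90.9% and 90.6% of the carbonic anhydrases, PFKFB3 with 81.3% and 83.4%, EGLN1 with 72.4% and 70.5%, and BNIP3 with 72.2% and 75.5%. More even were LDHA against LDHB (55.0% ± 2.11 and 56.6% ± 1.39 for LDHA), HIF1A against EPAS1 (57.4% ± 12.6 and 52.7% ± 8.54 for HIF1A) and P4HA2 against P4HA1 (58.0% ± 9.03 and 61.8% ± 7.94 for P4HA2; all SD, n = 3). Exact permutation tests of these shares between the groups (two-sided) gave p-values from 0.2 to 1.0, where the design allows no p under 0.1.

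With the condition as the only term in edgeR's quasi-likelihood test, 0 of the 42 members were called at an adjusted p under 0.05 (Benjamini-Hochberg over the 16971 genes tested, of which 0.00589% were called, APEX1 alone). All 42 members passed the low-count filter. No member had an unadjusted p under 0.05, against 0.695% of all genes. DESeq2 also called 0 members, where 0.00589% of all genes were, with 0 members at an unadjusted p under 0.05, against 0.625%. On log2(FPKM + 1), limma called 0 members and 0.0054% of the genes in the FPKM table. Again 0 members had an unadjusted p under 0.05, against 1.23% of those genes. In the edgeR test 16 members lay higher and 26 lower in APEX1-OE, with a median log2 fold change of −0.02 against 0.03 over all genes. The median SE of the members was 0.215, and a p above the threshold does not show equal levels.

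HIF1A (ENSG00000100644.16, chromosome 14, 61695513 to 61748259, plus strand of GRCh38), the oxygen-regulated subunit of HIF1, had the largest log2 fold change upwards of all members. Replicates 1, 2 and 3 of APEX1-OE stood at 188, 448 and 560 CPM, and those of Ctrl at 224, 239 and 435 CPM. Values of other genes are given in the same order. APEX1-OE replicate 1 was the lowest of the 6 libraries and APEX1-OE replicate 3 the highest, so the groups overlapped, and the 3 libraries of set A held the 3 lowest values. The means were 398 ± 191 CPM against 300 ± 118 CPM (SD, n = 3 each). The log2 fold change was 0.41 (SE 0.422, adjusted p = 1.0, edgeR's quasi-likelihood test). With the library set as a term it was −0.05 (SE 0.122), and with an offset for GC content and transcript length as well it was 0.03 (SE 0.0661).

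The other alpha subunit, EPAS1 (HIF2A), varied far less. It stood at 295, 358 and 316 CPM in APEX1-OE and at 301, 313 and 316 CPM in Ctrl. EGLN1 (PHD2), the main oxygen-sensing prolyl hydroxylase, like HIF1A had its 3 lowest values in set A, with 44.7, 95.1 and 101 CPM in APEX1-OE and 57.5, 57.1 and 92.8 CPM in Ctrl. EGLN3 (PHD3), itself a HIF target, was low at 17.0 to 22.4 CPM. The shared partner ARNT lay between 29.5 and 39.8 CPM, the ubiquitin ligase subunit VHL between 60.5 and 70.0 CPM, and the asparaginyl hydroxylase HIF1AN between 81.5 and 98.3 CPM. In 5 of these 7 genes, the 3 libraries of set A held the 3 lowest CPM values. None of the 7 reached an unadjusted p under 0.05 in any of the 3 edgeR fits of this comparison, and the smallest was 0.0745 for VHL (edgeR with the library set and the offset). With the replicate number as a block, the unadjusted p was 0.0728 for HIF1A. Without APEX1-OE replicate 3 and with the library set as a term, the unadjusted p was 0.0411 for HIF1A (log2 fold change −0.15) and 0.0479 for EGLN1 (−0.18). Neither was called there, with adjusted p-values of 0.15 and 0.166 (edgeR).

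Among the HIF targets outside glycolysis, CA9 (ENSG00000107159.12, chromosome 9, 35673928 to 35681159, plus strand) was the lowest in APEX1-OE relative to Ctrl. It stood at 14.5, 14.2 and 11.8 CPM in APEX1-OE and at 17.4, 17.6 and 16.3 CPM in Ctrl. Every APEX1-OE library lay below every Ctrl library, and CA9 was the 1 member lower without overlap in CPM, and no member was higher without overlap, where 1.38% were. In FPKM the mean was 6.81 ± 0.599 against 8.56 ± 0.159 (SD, n = 3 each), a ratio of 0.796, with p = 0.1 in a two-sided exact permutation test, the lowest the design allows. The log2 fold change was −0.34 (SE 0.212, unadjusted p = 0.144, adjusted p = 1.0, edgeR's quasi-likelihood test). The difference had the same sign within each set, at −0.27 in set A and −0.34 in set B on the log2 CPM scale. CA9 rested on 383 to 641 counts per library.

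CA12, the second surface carbonic anhydrase, had a mean of 78.0 FPKM against 7.68 FPKM for CA9. It stood at 421, 589 and 669 CPM in APEX1-OE and at 614, 629 and 726 CPM in Ctrl. APEX1-OE replicate 1 was the lowest and Ctrl replicate 3 the highest, and the groups overlapped. Within set A the difference of APEX1-OE from Ctrl was −0.56 and within set B it was −0.21 on the log2 scale. BNIP3, a mitophagy receptor, stood at 61.2, 86.9 and 94.6 CPM in APEX1-OE and at 86.3, 84.5 and 92.3 CPM in Ctrl, with APEX1-OE replicate 1 apart below the other 5. Its relative BNIP3L was at 23.0, 49.1 and 61.3 CPM against 30.6, 29.5 and 60.1 CPM, with its 3 lowest values in set A and within-set differences of −0.39 in set A and −0.13 in set B. DDIT4, which restrains mTORC1, was at 574, 427 and 419 CPM in APEX1-OE and at 609, 588 and 459 CPM in Ctrl, with within-set differences of −0.06 in set A and −0.12 in set B.

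ADM, the vasodilator peptide adrenomedullin, lay on the other side. It stood at 102, 90.1 and 69.7 CPM in APEX1-OE and at 74.5, 83.3 and 70.8 CPM in Ctrl, so replicates 1 and 2 of APEX1-OE were the highest libraries and replicate 3 the lowest. The endothelial growth factor VEGFA hardly varied, at 47.0, 50.5 and 43.5 CPM against 47.8, 50.5 and 47.3 CPM. NDRG1 (80.8 to 98.2 CPM) and the collagen hydroxylase subunit P4HA2 (70.4 to 83.9 CPM) also had narrow ranges over the 6 libraries. Its counterpart P4HA1 (27.2 to 54.0 CPM), the histone demethylase KDM3A (16.1 to 37.4 CPM) and the pyruvate dehydrogenase kinase PDK1 (3.87 to 8.30 CPM) had their 3 lowest values in set A. KDM3A had the largest log2 fold change upwards of the 13 targets, 0.24 (SE 0.382, edgeR), smaller than its standard error. The value for KDM3A was −0.12 with the library set as a term and −0.02 with the set and the offset. ANKRD37 had only 27 to 63 counts per library. Summed over the 13 targets, the FPKM was 391, 429 and 446 in APEX1-OE and 470, 459 and 468 in Ctrl, with every Ctrl sum above every APEX1-OE sum. DDIT4 made the largest part of these sums. Without it the sums of the other 12 targets were 153, 220 and 234 against 196, 197 and 241, and the groups overlapped. The sums of the sensing genes, the transporters and the enzymes overlapped between the groups.

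The transporters overlapped between the groups. SLC2A1, the main glucose importer, stood at 185, 147 and 132 CPM in APEX1-OE and at 175, 186 and 143 CPM in Ctrl. SLC2A3 (GLUT3) lay between 27.3 and 32.5 CPM. SLC16A3 (MCT4), which exports lactate, stood at 502, 330 and 368 CPM in APEX1-OE and at 478, 485 and 318 CPM in Ctrl. In SLC2A1 and SLC16A3 the 3 libraries of set A held the 3 highest values. With the condition alone the log2 fold changes were −0.12, −0.05 and −0.09 for SLC2A1, SLC2A3 and SLC16A3, each under its standard error.

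Most glycolytic enzymes differed between the library sets and little between the groups. In 14 of the 19 enzymes the 3 libraries of set A held the 3 highest CPM values, and in 3 (HK2, LDHA and LDHB) the 3 lowest. Over all genes tested, set A held the 3 highest values in 30.9% and the 3 lowest in 35.5%. GAPDH, which makes the first energy-rich phosphate of the pathway and served as the loading control in the study, stood at 9859, 6483 and 5509 CPM in APEX1-OE and at 8282, 8345 and 5704 CPM in Ctrl. PKM, which makes pyruvate, stood at 8118, 5781 and 5182 CPM against 6823, 7049 and 5057 CPM. In both genes APEX1-OE replicate 1 was the highest library, Ctrl replicates 1 and 2 came next, and the libraries of set B lay lowest. Their log2 fold changes with the condition alone were −0.03 and 0.01.

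Along the pathway the pattern repeated. ALDOA, which splits fructose bisphosphate, was at 3326, 2081 and 1678 CPM in APEX1-OE and at 2623, 2661 and 1718 CPM in Ctrl. TPI1, which interconverts the resulting triose phosphates, was at 1778, 1127 and 1015 CPM against 1503, 1509 and 971 CPM. ENO1, the main enolase, was at 5087, 3547 and 2934 CPM against 4259, 4351 and 3076 CPM. In these 3 genes APEX1-OE replicate 1 was again the highest and the libraries of set B the 3 lowest. PFKP, at the committing step, was at 763, 607 and 516 CPM in APEX1-OE and at 611, 640 and 517 CPM in Ctrl. PGK1, GPI (835 to 1214 CPM), PGAM1 (820 to 1113 CPM), PFKL (78.8 to 132 CPM), ENO2 (46.2 to 76.6 CPM), HK1 (173 to 201 CPM), PFKM (70.1 to 85.1 CPM) and ALDOC (3.06 to 4.71 CPM) also had their 3 highest values in set A. PFKFB3 (214 to 241 CPM) and PFKFB4 (26.4 to 44.6 CPM), which set the level of the activator fructose 2,6-bisphosphate, did not split by set.

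The lactate dehydrogenase genes, like HK2, had the opposite library order, with their lowest values in set A. LDHA (ENSG00000134333.13, chromosome 11, 18394560 to 18408425, plus strand), which turns pyruvate into lactate and is a textbook HIF1 target, stood at 1092, 1684 and 1984 CPM in APEX1-OE and at 1588, 1499 and 1932 CPM in Ctrl. APEX1-OE replicate 1 was the lowest of all and the libraries of set B were the 3 highest. LDHB was at 447, 712 and 953 CPM against 655, 578 and 834 CPM, in the same arrangement. PGK1, the phosphoglycerate kinase, was at 1101, 1057 and 1066 CPM in APEX1-OE and at 1248, 1267 and 1093 CPM in Ctrl, where 1 APEX1-OE library lay above the lowest Ctrl library. In FPKM PGK1 did not overlap, at 163, 185 and 192 against 202, 201 and 194 (two-sided exact permutation test, p = 0.1). PGK1 and CA9 were the 2 members lower without overlap in FPKM, 2 of 42 where 2.07% of the genes in the FPKM table were. HK2, the inducible hexokinase, had 72 to 199 counts per library and its 3 lowest CPM values in set A.

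**Figure D2:**
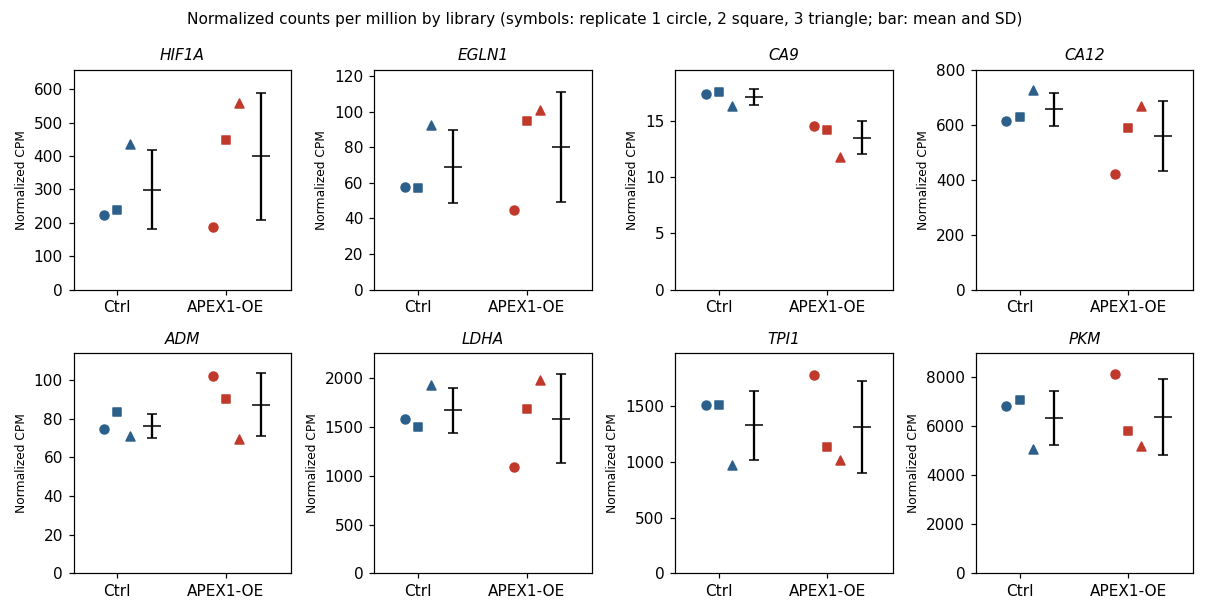
Normalized CPM of 8 genes in the Ctrl (blue) and APEX1-OE (red) libraries, with symbols for replicates and the mean and SD beside them (n = 3). CA9 is the panel without overlap, 11.8 to 14.5 CPM against 16.3 to 17.6 CPM, and in HIF1A, EGLN1 and LDHA APEX1-OE replicate 1 is the lowest library while in TPI1 and PKM it is the highest.

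The split between the sets followed the base composition of the members. Median GC content of the canonical transcript was 54.3% for the 20 members highest in set A, 43.7% for the 13 members lowest in set A and 51.3% for the other 9, beside 49.6% over all genes tested. Across the 42 genes, GC content and the log2 difference of APEX1-OE replicate 1 from the other APEX1-OE libraries had a Pearson's r of 0.82 and a Spearman's rho of 0.83. For Ctrl replicate 3 against the other Ctrl libraries r was −0.79 and rho −0.76. These genes share the libraries and are not independent replicates. PGK1, at 42.8% GC, was among the exceptions, with a difference of 0.05 between the APEX1-OE libraries. Members of similar GC content could also differ. EGLN1 (46.4% GC) had a difference of −1.13 between the APEX1-OE libraries, and VHL (46.3% GC) had 0.12. What made the libraries differ by base composition was not tested.

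**Figure D3:**
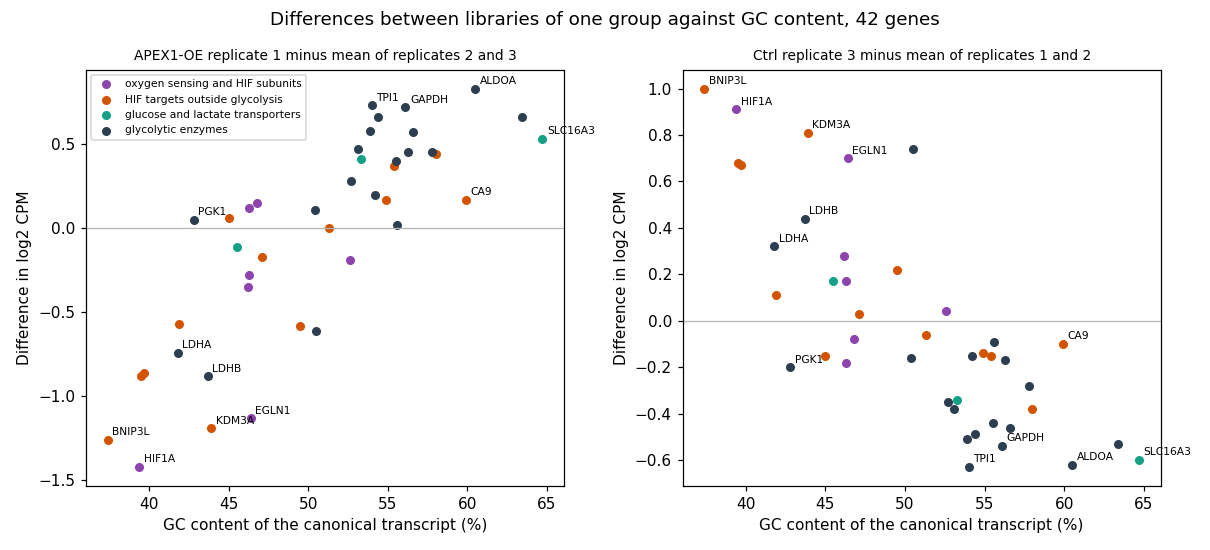
GC content of the canonical transcript against the log2 CPM difference between libraries of the same group, for 42 genes colored by role, in APEX1-OE (left, r = 0.82) and Ctrl (right, r = −0.79). Genes low in GC such as HIF1A (−1.42 and 0.91) and genes high in GC such as ALDOA (0.83 and −0.62) lie at opposite ends in both panels.

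With the library set added as a term, the standard errors of the members fell to a median of 0.095 and still no member was called (0 of 42, smallest adjusted p = 0.316, edgeR with Benjamini-Hochberg correction), where 0.0236% of all genes were. At an unadjusted p under 0.05 there were 5 members higher in APEX1-OE, 11.9% against 8.61% of all genes, and 4 members lower, 9.52% against 3.02%. The 5 higher were ADM (0.27), ALDOA (0.23), PFKP (0.20), TPI1 (0.19) and PKM (0.17, log2 fold changes). The 4 lower were CA12 (−0.38), CA9 (−0.30), LDHA (−0.29) and BNIP3 (−0.25). CA12 had the smallest p of the members, 0.00152 unadjusted (SE 0.0986, edgeR). The set was derived from the same counts that were tested, and the fit takes it as known. The standard errors and p-values of this fit may therefore be too small. By role, 12 of the 19 enzymes lay higher with a median log2 fold change of 0.11, and 11 of the 13 targets outside glycolysis lay lower with a median of −0.12, beside 0.01 over all genes, of which 51.6% lay higher. With the condition alone 7 enzymes lay higher and 12 lower, with a median of −0.02. The targets then had 5 higher, 8 lower and a median of −0.045, and 57.5% of all genes lay higher.

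A further offset per gene and library for GC content and transcript length was chosen after the data were seen. It was fitted to the same counts that were tested, so the same limit holds. With it and the library set, 0 members were called, against 0.131% of the genes, and the smallest adjusted p was 0.0905, for CA9 (log2 fold change −0.42, SE 0.0901, unadjusted p = 0.000275, edgeR's quasi-likelihood test). At an unadjusted p under 0.05, 2 members lay higher, 4.76% against 7.45% of all genes, and 6 lower, 14.3% against 4.73%. The 2 higher were ADM (0.21) and TPI1 (0.16). The 6 lower were CA9, CA12 (−0.34), LDHA (−0.21), BNIP3L (−0.21), DDIT4 (−0.19) and BNIP3 (−0.16). Of these 6, 5 were HIF targets outside glycolysis and the other was LDHA. ALDOA (0.09), PFKP (0.10) and PKM (0.08) no longer had an unadjusted p under 0.05, and GAPDH was at 0.09 (SE 0.0614).

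**Figure D4:**
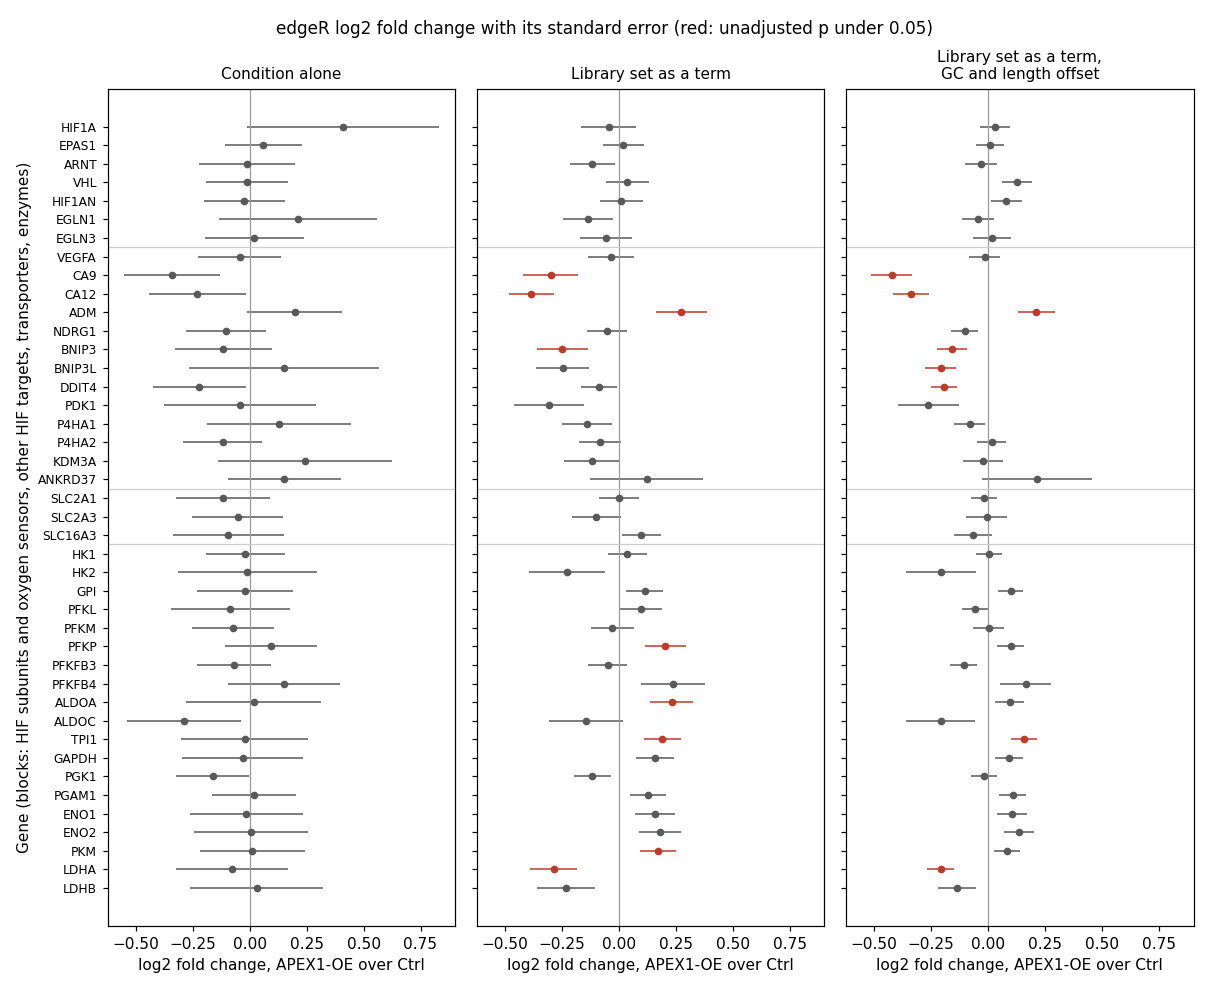
Log2 fold change of APEX1-OE over Ctrl with its standard error for the 42 genes in 3 edgeR fits, with unadjusted p under 0.05 in red and gray lines between roles. The bars shorten from left to right, HIF1A moves from 0.41 to −0.05 and 0.03, and CA9, CA12, LDHA and BNIP3 lie below 0 and ADM above 0 in each panel.

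Within the sets, 16 members were higher in APEX1-OE in both (38.1%, against 33.1% of all genes) and 20 were lower in both (47.6%, against 22.3%). The 16 were VHL, ADM, ANKRD37, SLC16A3 and 12 enzymes: HK1, GPI, PFKL, PFKP, PFKFB4, ALDOA, TPI1, GAPDH, PGAM1, ENO1, ENO2 and PKM. The 20 were ARNT, EGLN3, 10 targets (VEGFA, CA9, CA12, NDRG1, BNIP3, BNIP3L, DDIT4, PDK1, P4HA1 and P4HA2), SLC2A3 and 7 enzymes (HK2, PFKM, PFKFB3, ALDOC, PGK1, LDHA and LDHB). Set A has 1 APEX1-OE library and set B 1 Ctrl library, so each within-set difference rests on 1 library on that side. Differences in set A were often the larger: 0.33 against 0.12 for ALDOA, −0.50 against −0.08 for LDHA and −0.48 against −0.03 for BNIP3.

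The fit with the library set turned on 1 library. Without APEX1-OE replicate 3 it called 14 members, where 16.6% of all genes were called, and without any other library it called 0 members. The 14 were CA12 (−0.45), LDHA (−0.37), LDHB (−0.36), BNIP3L (−0.34) and BNIP3 (−0.30) on the lower side, and PFKFB4 (0.37), ADM (0.36), ALDOA (0.31), PFKP (0.26), TPI1 (0.23), ENO1 (0.22), GAPDH (0.22), PKM (0.21) and GPI (0.15) on the higher side. CA9 was not among them, with −0.24 (adjusted p = 0.119, edgeR). In that fit APEX1-OE has 1 library in each set, and the spread is estimated from the remaining libraries. Only Ctrl replicates 1 and 2 then share both group and set. They were the most alike pair of all libraries (chi-square over degrees of freedom 3.66).

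Near copies of the members held few counts. The 16 GAPDH pseudogenes in the table held 0.00671% as many counts as GAPDH, and the 3 LDHA pseudogenes 0.0246% as many as LDHA. Whether the authors used strand in counting is not stated in the sources used here. The antisense genes HIF1A-AS1 and HIF1A-AS2 held together 0.975% as many counts as HIF1A, and P4HA2-AS1 held 0.624% as many as P4HA2.

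Neighbouring genes of the pathway were counted in the same fits, where 8.61% of all genes lay higher and 3.02% lower at an unadjusted p under 0.05 with the library set as a term. Of 14 other HIF pathway components tested, 0 were called, and 1 (7.14%) lay higher and 0 lower at an unadjusted p under 0.05 with the library set as a term (CITED2, which competes with HIF1A for its coactivator, log2 fold change 0.28, SE 0.099, edgeR). Of 35 other hypoxia targets, 0 were called, with 7 higher (20.0%) and 4 lower (11.4%) at that p in the same fit. Of 10 genes of the pentose phosphate pathway and gluconeogenesis, 0 were called, with 3 higher (30.0%) and 0 lower at an unadjusted p under 0.05 with the set as a term. Of the 13 genes that bring pyruvate into mitochondrial metabolism, 0 were called, and 2 (15.4%) lay lower with the set as a term, PDK3 (−0.39) and MPC2 (−0.26), and 0 higher.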

How the data were processed

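RNA-seq libraries of A549 cells, 3 APEX1-OE and 3 Ctrl, were grouped by the sample labels. Per the study's methods, FASTX-Toolkit trimming was followed by TopHat2 alignment to GRCh38, and only unique alignments were used; the submitters' processing notes also name bcl2fastq and edgeR. The authors deposited raw counts per gene, and FPKM values per gene made from the same reads. The counter, annotation and strand setting are not stated in the sources used here.

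The tools were edgeR 4.0.16, DESeq2 1.42.0 and limma 3.58.1 under R 4.3.3, and scipy 1.17.1 under Python 3.11.15. TMM factors were applied to genes that passed filterByExpr (minimum count 10, minimum total 15), which were tested with edgeR's robust quasi-likelihood test on all 6 libraries, with Benjamini-Hochberg adjustment at 0.05 over all genes. Total counts lay between 28131955 and 41009197. For FPKM, limma was run on log2(FPKM + 1) over genes with a mean of at least 0.1, and single genes by exact two-sided permutation tests. The library set was the side of the first principal component. The offset came from splines of 5 degrees of freedom on GC content and on length, known for 98.7% of the genes. Fits were tested on simulated data. All pairs of libraries differed by more than sampling noise (lowest chi-square over degrees of freedom 3.66).

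The members, gene lists and the library set were chosen with earlier results of these data known. Genes were named if they were APEX1 or HIF1A, had an unadjusted p under 0.05 in the fits with the condition alone or with the set, did not overlap between groups, led their role by level or change, or belonged to an isozyme set; from the other lists, at most 2 each. Further members were described for their role. The labels do not say whether libraries with the same replicate number were handled together. Deviations of libraries with the same number correlated at 0.607, −0.521 and 0.700. Libraries numbered 1 share a library set, as do those numbered 3, and those numbered 2 do not. These values therefore cannot show whether the numbers pair the libraries. Alternatives were DESeq2, RLE factors, no filter, the replicate block, the library set, the offset, FPKM settings and each library left out. A sign change of a single gene was counted where its value moved by more than its standard error. Splicing and clinical samples were not analysed here.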

Additional observations from a re-analysis of the deposited data

How the results depend on the processing

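No member was called in the fit with the condition alone, with DESeq2, RLE factors, no filter, the offset, limma on FPKM, or any library left out, and the medians kept their sign. The count of members at an unadjusted p under 0.05, which was 0, became 9 with the library set as a term (21.4%, against 11.6% of all genes). With the set and the offset it was 8 (19.0%, against 12.2%), and with the offset alone 3 (7.14%, against 3.49%). The count lay between 0 and 1 with each library left out (1 without APEX1-OE replicate 1), where the share over all genes is not given here. With the set as a term, the number of called members lay between 0 and 14 with each library left out, with 14 only without APEX1-OE replicate 3. The members lower without overlap between groups were 1 in CPM and 2 in FPKM, where 2.01% and 2.07% of all genes were. Of 266 values for 19 named members under these alternatives, 38 changed sign and 2 of these moved by more than the standard error. They were HIF1A, at 0.41 alone and −0.046 with the library set as a term, and ALDOA, at 0.02 with all libraries and between −0.325 and 0.211 with each library left out, lowest without APEX1-OE replicate 1. The cause was not tested. It is not known whether the replicate numbers pair the libraries. The replicate block called 0 members and gave 0 at an unadjusted p under 0.05, with a median of −0.029. Over all genes the block called 2 and gave 561 at an unadjusted p under 0.05, against 1 and 118 without it. ANKRD37, with 27 to 63 counts per library, and PDK1, HK2 and ALDOC, under 400 counts, rest on the fewest counts of the members.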
